A study of Mus musculus with 12 samples.

Results

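A set of 10 long noncoding RNAs (lncRNAs) was followed through all groups of the study: Malat1, Neat1, Kcnq1ot1, Norad, Gas5, Snhg1, Snhg5, Snhg12, Epb41l4aos and Mir17hg. They were chosen by name and matched to the Ensembl identifiers of the count tables, where 10 of 10 were found among 56941 genes, of which 11141 are annotated as lncRNA. Bone marrow monocytes of C57BL/6J mice, either WT or with the gene of miR-210 deleted (miR-210 KO), had been grown for 7 days in 20% serum with 30% L929-conditioned medium, which supplies M-CSF. These M0 macrophages were compared with M2 macrophages given 20 ng/mL IL-4 for a further 72 hours, with 3 libraries in each of WT M0, KO M0, WT M2 and KO M2. The paper states that control wells were kept in the same conditions without IL-4. The KO allele came from a floxed line crossed with Gata-1 Cre mice, KO and WT animals were bred from heterozygotes, and cells of every group carried the same exposure to L929 medium.

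LncRNAs are transcripts without a long reading frame that can act as structural parts of nuclear bodies, as decoys for proteins, as regulators of neighbouring genes, or as carriers from which smaller RNAs are cut. Malat1 gathers in nuclear speckles, where splicing factors are stored, and Neat1 is the scaffold of paraspeckles. Kcnq1ot1 is transcribed from the paternal copy of an imprinted domain and silences neighbours in cis, whereas Norad is a cytoplasmic decoy of Pumilio proteins. Gas5, Snhg1, Snhg5, Snhg12 and Epb41l4aos carry small nucleolar RNAs (snoRNAs) in their introns, and their spliced RNA is often removed by nonsense-mediated decay. Mir17hg is the primary transcript of the miR-17-92 cluster, which is under the control of Myc in many cell types.

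The libraries held between 7930525 and 10167695 counts. The 8 macrophage markers were all above a counts-per-million (CPM, TMM-scaled) value of 1 in every group, and their summed level lay between 7586 and 10376 CPM in all libraries. The summed level of 4 IL-4 response genes lay between 1542 and 2088 CPM in M0 and between 6439 and 7030 CPM in M2. In M0 nearly all of it came from Mrc1 (means of 1719 CPM in WT and 1648 CPM in KO). Arg1 had M0 means of 41.1 and 73.6 CPM, Chil3 of 0.127 and 0 CPM, and Retnla was at 0. Markers of B cells summed to at most 10.2 CPM, nearly all of it from Cd79b, while Ms4a1 was at 0, and dendritic cell markers summed to at most 1.32 CPM in M0 and 19.3 CPM in M2, nearly all of it from Zbtb46. Markers of neutrophils, erythroid cells, mast cells and basophils, T and NK cells, and fibroblasts summed to at most 5.69, 4.43, 4.60, 0.376 and 2.29 CPM in any library. For Mir210, the deleted hairpin gene, WT libraries held from 1 to 5 counts each and all 6 KO libraries held 0. The labels give every group a batch of its own, so a batch and a group cannot be told apart. In bulk RNA, a lower share of cells that express a gene and less of its RNA per cell cannot be told apart either.

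The sequences on which several members act are short. The mature products of the miR-17-92 cluster are given here by seed, because miRNAs with the same seed recognise overlapping targets and Mir17hg is the precursor of all 6 of them. Each is written 5′ to 3′ as in RefSeq (GRCm38.p6, plus strand), with bases 2 to 8, the seed, in capitals. The 6 miRNAs hold 4 seeds, and miR-17-5p with miR-20a-5p, and miR-19a-3p with miR-19b-3p, share theirs.
miR-17-5p: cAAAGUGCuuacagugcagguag
miR-20a-5p: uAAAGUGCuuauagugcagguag
miR-18a-5p: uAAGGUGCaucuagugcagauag
miR-19a-3p: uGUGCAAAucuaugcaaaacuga
miR-19b-3p: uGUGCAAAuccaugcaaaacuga
miR-92a-3p: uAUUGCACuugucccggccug
Over their 23 bases, miR-17-5p and miR-20a-5p differ at 2 positions and miR-19a-3p and miR-19b-3p at 1.

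The miRNA missing from the KO cells is shown for the same reason, since a transcript with a match to its seed could be read by it directly. In miR-210-3p (GRCm38.p6, chromosome 7, 141221407 to 141221428, minus strand) the seed is again in capitals.
miR-210-3p: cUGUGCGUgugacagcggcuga
The reverse complement of that seed, ACGCACA, was sought on the sense strand of the longest annotated transcript of each member. It occurred 1 time in Neat1 and 1 time in Kcnq1ot1, the longest members, and in none of the other 8, and 2.71% of 32884 lncRNAs hold it. Longer transcripts hold it more often, and among the 10 lncRNAs of a length like that of Neat1 the share was 40%. The Neat1 match (GRCm39, chr19:5885321-5885349, minus strand) and the Kcnq1ot1 match (GRCm39, chr7:142795723-142795751, minus strand) lie in exons and are in capitals.
Neat1: gaagcatggggACGCACAcaggatgcacc
Kcnq1ot1: gtgatcacaagACGCACAcacacacacac
The other arm, miR-210-5p, is lost with the same hairpin, and the reverse complement of its seed, CAGTGGC, occurred 3 times in Neat1, 4 times in Kcnq1ot1, 1 time in Norad, 1 time in Epb41l4aos and in none of the other 6, with 10.1% of lncRNAs holding it. Among lncRNAs of like length, the share with CAGTGGC was 80% for Neat1, 29.4% for Norad and 17.5% for Epb41l4aos. Too few lncRNAs were of a length like that of Kcnq1ot1 to give a share. A match to letters is a description and not a site of action, and the levels of these genes in KO and WT cells are given further on.

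Norad is known for repeated Pumilio recognition elements, and its transcript was scanned for the letters TGTANATA on the sense strand. The 4945-base transcript held 11 copies, or 2.22 per kilobase, and none of 2221 other lncRNA transcripts of like length held as many. Among transcripts of that length, 28.3% had at least 1 copy. Epb41l4aos had 3 copies in 2396 bases, Neat1 4, Kcnq1ot1 18 in 93092 bases, Gas5, Snhg1 and Mir17hg 1 each, and Malat1, Snhg5 and Snhg12 none. The first 4 Norad copies along the transcript (GRCm39, minus strand, chr2:156234231-156234260, chr2:156233735-156233764, chr2:156233546-156233575 and chr2:156233359-156233388) are shown in capitals.
Norad site 1: tagaagtcctgTGTATATAatatgaaaaag
Norad site 2: agtaaacatgcTGTAAATAcctttttgtta
Norad site 3: tggcttttcttTGTACATAgtgtatgtaaa
Norad site 4: actgactgctgTGTATATAgtggacaacag

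SnoRNA host genes often start with a run of pyrimidines, as genes of the translation machinery do. The window from 10 bases before to 20 bases after each RefSeq start (GRCm38.p6) is shown for 4 hosts, on the strand of the gene, with the longest run of C or T that begins within 10 bases of the start in capitals.
Gas5: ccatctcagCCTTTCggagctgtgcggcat
Snhg1: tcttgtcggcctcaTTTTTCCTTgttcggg
Snhg5: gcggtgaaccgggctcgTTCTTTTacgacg
Snhg12: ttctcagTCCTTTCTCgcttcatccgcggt
The runs were 6, 9, 7 and 9 bases long, against a median of 4 over 32851 promoter windows. They began before the start in Gas5 (-1) and Snhg12 (-3), and at base 5 of the transcript in Snhg1 and base 8 in Snhg5. The annotated transcripts of Snhg1 and Snhg5 thus do not begin with the marked run. A run of at least 9 was present in 5.96% of all windows, of at least 7 in 14.4% and of at least 6 in 23.1%. A second annotated Gas5 start, upstream of the one shown, had a run of 3, and runs of at least that length were in 79.3% of windows. The windows shown lie on chromosome 1 (161035156 to 161035185) for Gas5, 19 (8723477 to 8723506) for Snhg1, 9 (88522878 to 88522907, minus strand) for Snhg5 and 4 (132308668 to 132308697) for Snhg12.

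The members covered a wide range of CPM in these macrophages. Malat1, with a mean of 7032 CPM over the 12 libraries, ranked 1 among all genes, Neat1 (862 CPM) ranked 93, Norad (464 CPM) 261 and Kcnq1ot1 (275 CPM) 682. Gas5 (47.0 CPM) ranked 4784, and the remaining 5 ranked between 8042 (Snhg12, 17.4 CPM) and 9955 (Epb41l4aos, 8.05 CPM). Among lncRNAs the ranks were 1, 2, 3 and 6 for Malat1, Neat1, Norad and Kcnq1ot1, 44 for Gas5, and 137, 149, 151, 158 and 315 for Snhg12, Snhg1, Snhg5, Mir17hg and Epb41l4aos. By CPM, 4 members thus ranked above the rest by a wide margin. Together the 10 took between 0.779% and 1.02% of the counts of a library, and between 38.3% and 43.4% of all lncRNA counts, of which Malat1 alone made up 30.1% to 35.4%.

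Levels of different genes can be compared only per length, and for lncRNAs the length is uncertain. The lengths came from the GENCODE annotation used here, which may differ from the one on which the authors counted reads. With all annotated exons merged, Malat1 stood at 892 CPM per kilobase, Norad at 92.8, Neat1 at 38.5, Gas5 at 11.1, Snhg12 at 6.07, Snhg1 at 4.65, Mir17hg at 3.74, Snhg5 at 3.62, Kcnq1ot1 at 2.92 and Epb41l4aos at 2.07. The libraries of Malat1, Norad, Neat1 and Gas5 did not overlap in that order, whereas every neighbouring pair from Gas5 downwards overlapped between its libraries. With the canonical transcript in place of merged exons, Kcnq1ot1 rose from place 9 to place 2 (159 CPM per kilobase), because its canonical form has 1722 bases and its merged exons 93852. Snhg12 fell from place 5 to place 10 at a level of 6.11, and Gas5 stayed at place 4 with 70.3.

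**Figure D1:**
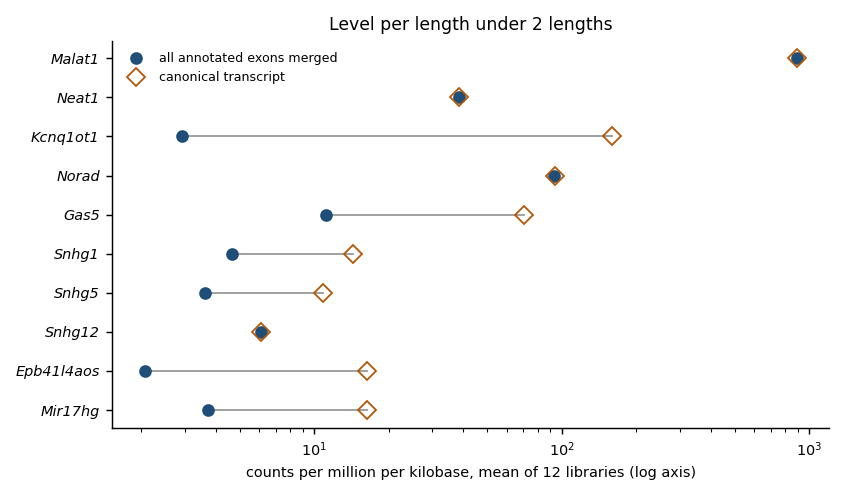
Mean level of each member over 12 libraries in CPM per kilobase (log axis), with merged exons (filled circles) or the canonical transcript (open diamonds) as the length. Malat1 stood at 892 under both lengths, while Kcnq1ot1 moved from 2.92 to 159.

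Counts on the smaller RNAs that members carry were absent. All 26 annotated snoRNA genes within the 5 hosts and all 6 miRNA hairpins within Mir17hg had 0 counts in every library. How reads shared by a host and a small RNA inside it were counted is not stated. A count of 0 therefore says nothing of the level of the snoRNAs or miRNAs themselves. Antisense genes overlap Gas5 (Zbtb37 among others), Snhg1 (Slc3a2), Kcnq1ot1 (Kcnq1 among others), Epb41l4aos (Epb41l4a), Neat1 (Frmd8os) and Malat1 (Gm37376), and reads were counted by strand. In GRCm39, Malat1 lies on chromosome 19 (5845717 to 5853602, minus strand), Neat1 on 19 (5874736 to 5897132, minus), Kcnq1ot1 on 7 (142731402 to 142850327, minus), Norad on 2 (156229977 to 156234978, minus), Gas5 on 1 (160861793 to 160866118, plus), Snhg1 on 19 (8700319 to 8703812, plus), Snhg5 on 9 (88377321 to 88405615, minus), Snhg12 on 4 (132035905 to 132038762, plus) and Mir17hg on 14 (115278211 to 115284162, plus).

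**Figure D2:**
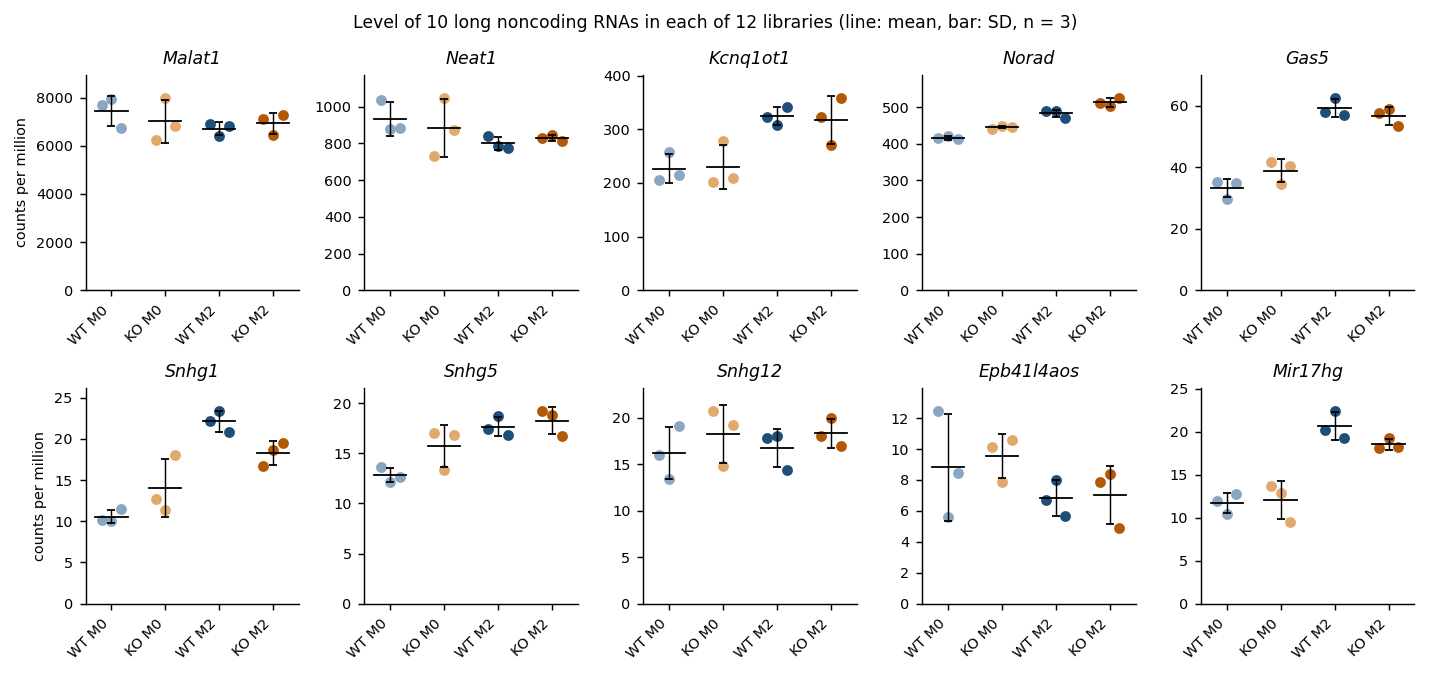
Level of the 10 members in CPM (linear axis from 0) in each library of WT M0, KO M0, WT M2 and KO M2. Points are libraries, horizontal lines group means and bars the SD of 3 libraries. Snhg1, Gas5 and Mir17hg lay higher in all M2 libraries of WT than in all its M0 libraries.

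The first question was whether deletion of miR-210 changed the members in M0 or in M2 macrophages. With edgeR, 0 of the 10 were called in either state, where called means an adjusted p under 0.05 and a difference beyond 1.2-fold in either direction. Over all genes 0.461% were called in M0 (0.22% higher in KO, 0.241% lower) and 0.98% in M2 (0.408% higher, 0.572% lower). One member had an unadjusted p under 0.05 in each state, Snhg1 both times, and DESeq2 also called 0. The log2 difference was above 0 for 8 members in M0 and for 6 in M2, with medians of 0.11 and 0.05 beside medians of 0.00 over all genes. The WT and KO libraries did not overlap for 1 member in M0 and 3 in M2, beside 14.4% and 16% of all genes tested.

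Among the nuclear members, Malat1 read 7672, 7951 and 6758 CPM in the WT M0 libraries numbered 1 to 3 and 6242, 7998 and 6803 CPM in KO M0. In M2 its values were 6925, 6404 and 6819 CPM in WT and 7107, 6433 and 7268 CPM in KO. The genotypes overlapped in both states, and the log2 difference of KO from WT was -0.09 (95% interval -0.34 to 0.16) in M0 and 0.05 (-0.06 to 0.16) in M2. Neat1, which holds seed matches to both arms of miR-210, read 1038, 876 and 886 CPM in WT M0 and 734, 1049 and 871 CPM in KO M0. The KO library numbered 2 was the highest and the KO library numbered 1 the lowest of the 6. The difference of Neat1 was -0.08 (-0.35 to 0.20) in M0, and in M2, where WT read 842, 787 and 774 CPM and KO 829, 846 and 813 CPM, it was 0.06 (-0.05 to 0.16). Kcnq1ot1, which also holds matches to both arms, differed by 0.02 (-0.26 to 0.30) in M0 and by -0.03 (-0.20 to 0.14) in M2, again with overlapping libraries. These intervals leave room for differences of about the size of the limit in M0, and for smaller ones in M2.

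Norad varied little between libraries, with a coefficient of variation of 0.766% to 2.30% within groups. A spread over 3 libraries is itself uncertain, and in both M0 groups it was below that expected from counting alone at 3267 to 4705 counts. It read 415, 422 and 412 CPM in WT M0, 441, 448 and 446 CPM in KO M0, 488, 489 and 471 CPM in WT M2, and 511, 502 and 526 CPM in KO M2. KO libraries lay above all WT libraries in both states without overlap, by 0.10 (SE 0.07, adjusted p = 0.729) in M0 and 0.09 (SE 0.05, adjusted p = 0.551) in M2 in edgeR's test, which takes its spread in part from other genes of like level. Averaged over both states in a fit of all 12 libraries, which was added after the values were seen, Norad was 0.09 higher in KO (SE 0.04, unadjusted p = 0.0337, adjusted p = 0.408). That difference was not called, 0 of the 10 members were called in that fit, and 0.951% of all genes were.

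Snhg1 was the member with the smallest p in both genotype comparisons, and its direction was opposite in the 2 states. It read 10.2, 10.0 and 11.5 CPM in WT M0 and 12.7, 11.4 and 18.0 CPM in KO M0, on 80 to 181 counts. The KO library numbered 3 was the highest and the genotypes overlapped slightly, with a log2 difference of 0.41 (SE 0.18, unadjusted p = 0.0448, adjusted p = 0.478). In M2 the WT libraries read 22.2, 23.4 and 20.8 CPM and the KO libraries 16.7, 18.6 and 19.5 CPM. All KO libraries were below all WT libraries, and the difference was -0.27 (SE 0.10, unadjusted p = 0.0171, adjusted p = 0.305). Without the KO M0 library numbered 3, the difference in M0 was 0.19.

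The other snoRNA hosts and Mir17hg were not distinguishable between genotypes. In M0 the log2 difference of KO from WT was 0.23 for Gas5 (SE 0.11, unadjusted p = 0.055), 0.29 for Snhg5 (SE 0.14, unadjusted p = 0.0587), 0.17 for Snhg12, 0.13 for Epb41l4aos and 0.04 for Mir17hg. In M2 it was -0.06, 0.05, 0.13, 0.05 and -0.15 in the same order. Among these 5, Mir17hg in M2 had libraries that did not overlap, with 20.3, 22.4 and 19.3 CPM in WT and 18.1, 19.2 and 18.3 CPM in KO (adjusted p = 0.648). Epb41l4aos rests on 39 to 106 counts in a library and its intervals are the widest, -0.43 to 0.68 in M0 and -0.37 to 0.48 in M2.

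**Figure D3:**
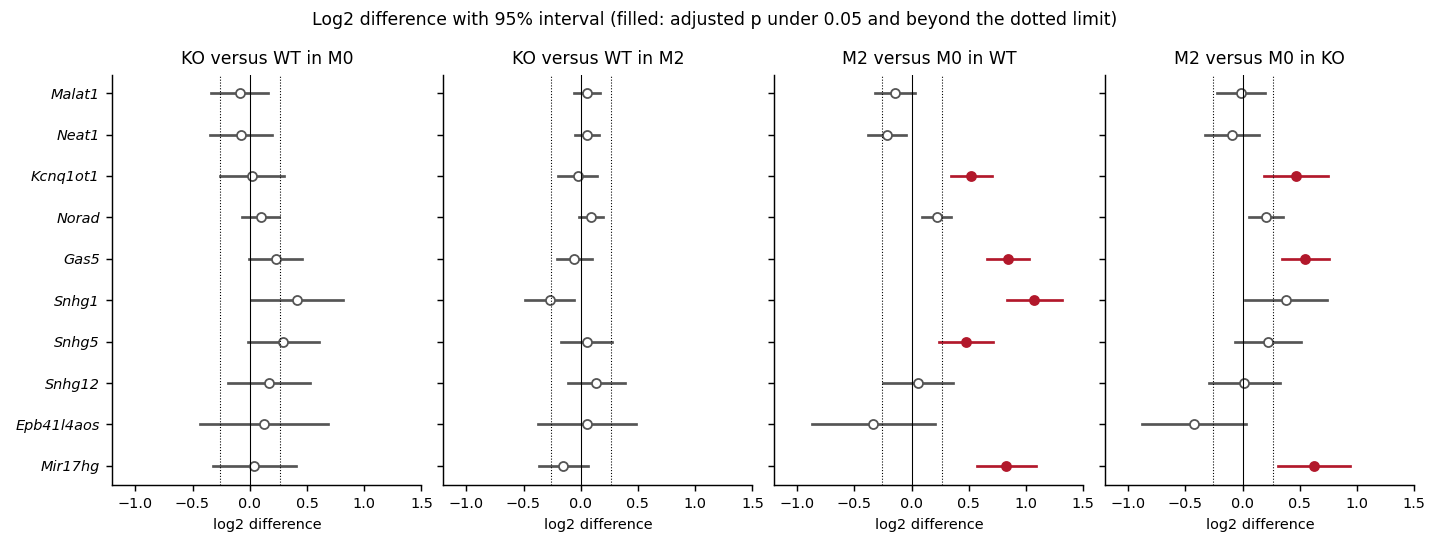
Log2 difference (points) with 95% interval (lines) of each member in 4 comparisons, first group minus second. Filled red points are called, dotted lines mark 1.2-fold in either direction, and called members are found only in the M2 versus M0 panels, 5 in WT and 3 in KO.

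The second question was how IL-4 changed the members in each genotype. In WT macrophages 5 of 10 members rose and 0 fell, beside 43% of all genes called (22.1% higher and 20.9% lower). In KO macrophages 3 of 10 rose and 0 fell, beside 33.8% of all genes (17.4% higher and 16.4% lower). The M0 and M2 libraries did not overlap for 7 members in WT and 3 in KO, beside 57% and 46.3% of all genes. The share of members called was therefore close to that of all genes, and the directions of the called members were all upward. Among the other lncRNAs tested, 259 rose and 282 fell of 1503 in WT, and 222 rose and 181 fell of 1571 in KO. The median log2 difference of the members was 0.35 in WT and 0.21 in KO, and that of all genes 0.00 and -0.01.

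Snhg1, whose introns carry box C/D snoRNAs, showed the largest difference of the members in WT. Its level went from the M0 values of 10.0 to 11.5 CPM to M2 values of 20.8 to 23.4 CPM, a fold of 2.10 (95% interval 1.78 to 2.48, log2 1.07, SE 0.11, adjusted p = 3.25e-06). In KO the libraries overlapped, from 11.4 to 18.0 CPM in M0 to 16.7 to 19.5 CPM in M2, and the difference of 0.38 (SE 0.17, adjusted p = 0.0981) was not called. Without the KO M0 library numbered 3 it was 0.59 and was called (adjusted p = 0.00893), and it was also called with no filter on low counts (adjusted p = 0.0463) and in a fit of all 12 libraries (adjusted p = 0.0475).

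Gas5, a snoRNA host whose spliced RNA can also bind the glucocorticoid receptor, rose in both genotypes. In WT it read 35.2, 29.7 and 34.7 CPM in M0 and 57.9, 62.6 and 57.1 CPM in M2, and in KO 41.8, 34.6 and 40.2 CPM in M0 and 57.7, 59.0 and 53.5 CPM in M2. No M0 library reached an M2 library of its genotype. The fold was 1.79 in WT (1.58 to 2.03, adjusted p = 2.23e-06) and 1.46 in KO (1.26 to 1.69, adjusted p = 0.000605), and Gas5 was called under all alternatives except a limit of 1 on the log2 difference.

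Snhg5 rose in WT from 13.6, 12.2 and 12.7 CPM to 17.4, 18.8 and 16.8 CPM, a fold of 1.39 (1.18 to 1.64, adjusted p = 0.00303) without overlap. In KO it read 17.0, 13.3 and 16.8 CPM in M0 and 19.2, 18.8 and 16.8 CPM in M2, the libraries overlapped, and the log2 difference was 0.22 (SE 0.13, adjusted p = 0.228). The KO M0 libraries numbered 1 and 3 stood near the M2 values already.

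Snhg12 and Epb41l4aos, the remaining hosts, were not called. Snhg12 read between 13.4 and 20.7 CPM over all 12 libraries, with log2 differences of 0.06 (SE 0.14) in WT and 0.01 (SE 0.14) in KO. Epb41l4aos read 12.5, 5.58 and 8.42 CPM in WT M0 and 6.72, 8.01 and 5.69 CPM in WT M2. Its WT M0 libraries enclosed those of WT M2, with a log2 difference of -0.34 (SE 0.25, adjusted p = 0.29), and in KO the difference was -0.43 (SE 0.21, adjusted p = 0.143). Without the WT M0 library numbered 2, which was the lowest, Epb41l4aos was called lower in WT (-0.58, adjusted p = 0.0248).

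Mir17hg, the carrier of the miRNAs shown above, rose in both genotypes. In WT it went from 11.95, 10.4 and 12.8 CPM to 20.3, 22.4 and 19.3 CPM, a fold of 1.77 (1.49 to 2.12, adjusted p = 6.02e-05). In KO it went from 13.7, 12.9 and 9.56 CPM to 18.1, 19.2 and 18.3 CPM, a fold of 1.54 (1.24 to 1.92, adjusted p = 0.0048). The M0 and M2 libraries did not overlap in either genotype.

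Kcnq1ot1, the imprinted antisense transcript, also rose in both. It read 206, 258 and 216 CPM in WT M0 and 323, 308 and 341 CPM in WT M2, a fold of 1.44 (1.27 to 1.63, adjusted p = 0.000179) without overlap. In KO it read 202, 277 and 210.1 CPM in M0 and 322, 270.3 and 359 CPM in M2, a fold of 1.38 (1.14 to 1.67, adjusted p = 0.0132). The KO groups overlapped, because the M0 library numbered 2 was above the M2 library numbered 2. The call in KO was lost without the KO M0 library numbered 3 (log2 difference 0.39, adjusted p = 0.0671) or without the KO M2 library numbered 3 (0.35, adjusted p = 0.0641).

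Norad and Neat1 moved by less than the limit. Norad was higher in M2 without overlap in both genotypes, by 0.22 in WT (SE 0.06, adjusted p = 0.00778) and 0.21 in KO (SE 0.07, adjusted p = 0.0328). Neat1 was lower in M2 without overlap in WT, by -0.22 (SE 0.08, adjusted p = 0.0338), and in KO its libraries overlapped (-0.09, SE 0.11, adjusted p = 0.561). Malat1 differed by -0.15 (SE 0.08, adjusted p = 0.153) in WT and by -0.02 (SE 0.10, adjusted p = 0.922) in KO, so the level of Malat1 stayed within 1.28-fold over all 12 libraries.

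**Figure D4:**
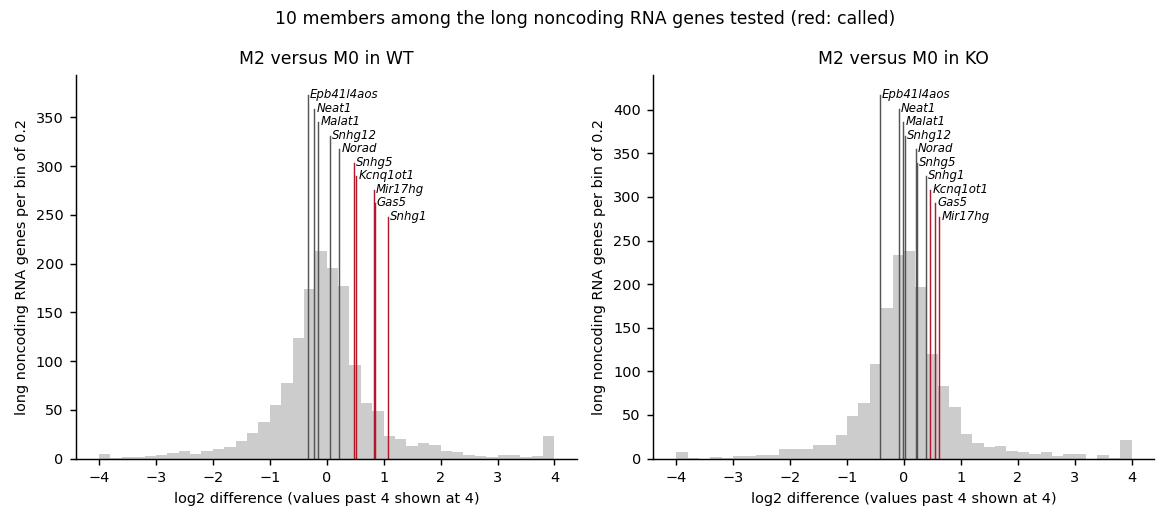
Histogram of the log2 difference of M2 from M0 over the lncRNA genes tested in WT (1513) and KO (1581), with the 10 members as vertical lines, red where called. The called members lay right of the middle of the histogram, with Snhg1 above 90.9% of the lncRNA genes in WT and above 73.3% in KO.

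The third question was whether the response to IL-4 differed between genotypes. With edgeR, 0% of 14825 genes had an adjusted interaction p under 0.05, with 1327 at an unadjusted p under 0.05, and DESeq2 called 85 genes. Of the 10 members 0 were called by either tool and 2 had an unadjusted p under 0.05. The IL-4 difference of Snhg1 was smaller in KO by -0.69 on the log2 scale (95% interval -1.13 to -0.25, unadjusted p = 0.00428, adjusted p = 0.276), and that of Gas5 by -0.29 (-0.56 to -0.02, unadjusted p = 0.0371, adjusted p = 0.523). For Snhg1 the adjusted p was 0.0339 with no filter on low counts, lay between 0.0628 and 0.513 with 1 library left out, and the difference was -0.47 without the KO M0 library numbered 3. The interaction of the other 8 ranged from -0.25 (Snhg5) to 0.14 (Malat1), and the 3 calls in KO against 5 in WT are therefore not shown to be a difference between genotypes.

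Within groups several members moved together from library to library. Malat1 and Kcnq1ot1 were above their group mean, and Gas5, Snhg5, Snhg12 and Epb41l4aos below it, in several libraries. These were the M0 libraries numbered 2 and the M2 libraries numbered 3, of both genotypes. All 6 signs were reversed in the KO M0 libraries numbered 1 and 3 and in the M2 libraries numbered 2 of both genotypes. In the remaining libraries, such as the KO M2 library numbered 1, the signs did not split in this way. Over the 12 deviations from group means, Pearson's r was 0.84 between Malat1 and Kcnq1ot1, -0.93 between Gas5 and Kcnq1ot1, -0.88 between Malat1 and Snhg12, and 0.89 between Gas5 and Snhg5. The deviations share libraries and a common scaling, and each group of 3 sums to 0, so these are descriptions.

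The same libraries differed in how they represented long and short messages. For 8950 protein-coding genes with a mean of at least 10 CPM, the median deviation of long genes (canonical transcript of at least 5256 bases) minus that of short genes (at most 2298 bases) was 0.18 in the KO M0 library numbered 2, 0.14 in the WT M0 library numbered 2 and 0.13 in the KO M2 library numbered 3. It was -0.17 in the KO M0 library numbered 1 and -0.10 in the KO M2 library numbered 2. Against this measure, r over the 12 libraries was 0.90 for Malat1, 0.93 for Kcnq1ot1, 0.57 for Norad and 0.47 for Neat1, and -0.94 for Gas5, -0.84 for Snhg5, -0.87 for Snhg12, -0.75 for Epb41l4aos, -0.37 for Mir17hg and -0.21 for Snhg1. Without the M0 libraries numbered 2, the farthest from the median, r was 0.82, 0.87, 0.54 and 0.37 for the first 4 and -0.87, -0.74, -0.73, -0.64, -0.55 and 0.25 for the others.

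**Figure D5:**
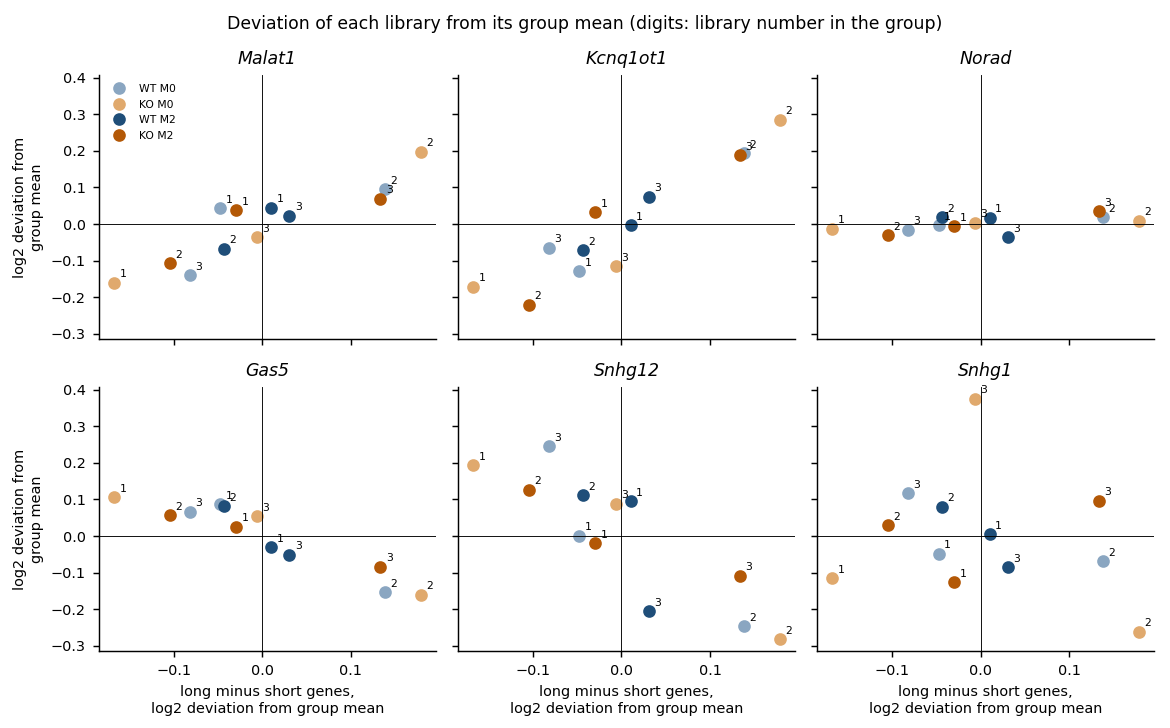
Log2 deviation of each library from its group mean for 6 members (vertical axis) against the deviation of long minus short protein-coding genes (horizontal axis), with the library number beside each point. Kcnq1ot1 and Malat1 rise along the axis, Gas5 and Snhg12 fall along it, and the M0 libraries numbered 2 lie at its right end.

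Between groups the median log2 differences of these long and short genes, in that order, were -0.03 and 0.05 for KO against WT in M0, 0.02 and 0.00 in M2, -0.06 and 0.07 for M2 against M0 in WT, and -0.02 and 0.00 in KO. Gas5 and Kcnq1ot1 moved in opposite directions between libraries of a group, and both rose with IL-4. The part of the length pattern in either rise was not tested beyond the fit that follows. With the measure as a covariate, which was added after the values were seen, the M2 and M0 difference was 0.77 for Gas5 and 0.62 for Kcnq1ot1 in WT, and 0.56 and 0.44 in KO, all 4 called. The call of Kcnq1ot1 in KO then had an adjusted p of 8.73e-05, that of Epb41l4aos in WT was added (-0.54, adjusted p = 0.0374), and 0 members were called between genotypes. In that fit the measure was taken from the same libraries without removal of group means. It averaged 1.16 in WT M0, 1.06 in KO M0, 1.09 in WT M2 and 1.08 in KO M2. The part of RNA quality in this pattern was not tested.

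Genes that work with the members were taken from lists of known partners, and the counts given for them are to be read against the 43% of all genes called with IL-4 in WT and the 33.8% in KO. Of 10 core proteins that assemble on snoRNAs, 5 rose and 0 fell in WT with IL-4, with Dkc1, the pseudouridine synthase of box H/ACA particles, at 0.77 and Nop58, a core protein of box C/D particles, at 0.54. In KO 1 rose, Dkc1 at 0.73, and Nop58 differed by 0.04. The list median was 0.30 in WT and 0.12 in KO. Of the other noncoding snoRNA hosts, 3 of 12 rose and 0 fell in WT (Snhg7 0.51, Snhg6 0.41, Snhg17 0.28), and in KO 1 of 11 rose (Snhg7 0.46) and 1 fell (Snhg11 -0.91). Between genotypes 0 of these hosts and 0 of the core proteins were called. Of 10 factors of nonsense-mediated decay, which degrades many host transcripts, Smg5 rose by 0.85 in WT and 0.69 in KO, while Smg1 fell in WT (-0.28) and Smg9 in KO (-0.28).

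For the nuclear bodies, 15 paraspeckle proteins and 17 speckle and SR proteins were measured. Of the paraspeckle proteins 4 rose and 3 fell in WT, led by Nudt21 (0.41) and Dazap1 (0.38) upward and by Taf15 (-0.48) and Hnrnph3 (-0.44) downward, and in KO 1 rose (Nudt21 0.30) and 1 fell (Taf15 -0.78). Of the speckle proteins 5 rose and 3 fell in WT, with the splicing factors Srsf9 at 0.58 and Srsf6 at 0.43 and the speckle component Srrm1 at -0.46 and Pnn at -0.35, and in KO 2 rose (Srsf9 0.60, Srsf6 0.27) and 0 fell. Of 4 Norad-binding proteins 0 were called in any of the comparisons. List medians lay between -0.04 and 0.06 for both nuclear lists in the IL-4 comparisons, near those of all genes.

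Around Kcnq1ot1, 4 of 8 tested genes of the imprinted domain rose and 1 fell with IL-4 in WT. Kcnq1 and Osbpl5, at 0.538 and 0.382 CPM in WT M0, were not among the genes that passed the filter on low counts in the M0 libraries alone, so they were tested here through their level in M2, and the count of this list is not support for a direction. Kcnq1, the potassium channel gene in which Kcnq1ot1 lies in antisense, went from 0.538 ± 0.250 CPM to 3.39 ± 1.64 CPM (SD, n = 3), a log2 difference of 2.58 in WT and 2.38 in KO. Osbpl5 differed by 2.20 and 2.66, Tspan32 by 0.57 and 0.42, and Cd81, which encodes a tetraspanin, rose by 0.44 in WT. Cdkn1c, an imprinted inhibitor of the cell cycle, fell by 0.71 in WT, and in KO it differed by -0.40 (adjusted p = 0.211). Cd81 was higher in KO than in WT by 0.55 in M0 and 0.27 in M2, the single called gene of this domain between genotypes. Kcnq1ot1 and Mir210 lie 1929996 bases apart on chromosome 7, so Kcnq1ot1 is also linked to the deleted locus.

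For Mir17hg, 1 of 4 tested activators of its transcription rose with IL-4 in each genotype, and E2f1, E2f2 and E2f3 were not called (0.17, -0.12 and 0.09 in WT, -0.19, -0.51 and -0.11 in KO). The activator that rose was Myc, from 3.89 ± 1.06 to 28.6 ± 4.36 CPM in WT (log2 difference 2.85) and from 7.39 ± 1.45 to 27.2 ± 4.43 CPM in KO (1.88). Between genotypes in M0, Myc differed by 0.90 (SE 0.24, adjusted p = 0.175). Of 9 published targets of miR-17-92, 0 rose and 4 fell in WT and 2 fell in KO. Tgfbr2, a TGF-beta receptor, fell by 1.64 in WT and 1.32 in KO on the log2 scale, and the cell death gene Bcl2l11 fell by 0.57 in WT. Tgfbr2 was higher in KO than in WT in M2 by 0.35 (SE 0.07, adjusted p = 0.0229). Of 5 other miRNA host genes tested, 4 rose in each genotype, with Mir99ahg at 1.58 and 1.78, Mir22hg at 1.14 and 0.63 and Mir181a-1hg at 0.79 and 1.44, and Mir22hg was lower in KO than in WT in M2 (-0.28, SE 0.06, adjusted p = 0.0219).

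Of the glucocorticoid receptor and its targets, listed for Gas5, 3 of 7 tested rose and 1 fell in WT, and 3 of 8 rose and 0 fell in KO. The list medians were 0.01 and -0.05. Klf9 rose by 3.11 in WT and 2.98 in KO, Sgk1 by 1.24 and 1.05, and Fkbp5 by 0.88 and 0.67. The receptor gene Nr3c1 fell in WT (-0.40) and differed by -0.25 in KO (adjusted p = 0.0112), short of the limit. Tsc22d3 (-0.12 in WT and 0.15 in KO), Per1 (-0.15 and -0.64), Dusp1 (0.01 and -0.95) and Zbtb16 (-1.14, tested in KO only) were not called. Of 11 other named lncRNAs tested, 1 rose and 3 fell in each genotype. Pvt1, the neighbour of Myc, rose by 0.98 in WT and 0.97 in KO, and Morrbid, a regulator of myeloid cell survival, and Trp53cor1, a p53-induced lncRNA, differed by -2.14 and -2.15 in WT and by -2.89 and -2.20 in KO.

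Neighbours within 50000 bases of a member gave 8 higher and 6 lower of 36 tested with IL-4 in WT, 6 higher and 5 lower of 38 in KO, and 0 called between genotypes. Near Malat1 and Neat1, Ltbp3 rose by 1.11 in WT and 0.95 in KO, and Frmd8os, which overlaps Neat1 on the other strand, rose by 1.18 in both, while Neat1 itself did not rise. Zbtb37, antisense to Gas5, differed by -0.19 in WT and -0.01 in KO and was not called. Slc3a2, antisense to Snhg1, differed by 0.14 in WT (adjusted p = 0.251) and -0.08 in KO. Epb41l1, next to Norad, rose by 0.60 and 0.76. The largest falls were those of 9430037G07Rik (-0.77) and Zfp949 (-0.53) in WT and of Rnu11 (-0.68) and Trnau1ap (-0.39) in KO.

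The genes whose levels followed a member most closely over the 12 libraries were picked from 9452 genes with a mean of at least 10 CPM. Pearson's r was 0.96 between Malat1 and Socs4 and 0.95 between Malat1 and Rps6kb1. For Neat1 it was 0.89 with Spopl and 0.85 with Krit1, the lowest of the set. Kcnq1ot1 followed Igf1r (0.99) and Foxp1 (0.98), and Norad followed St3gal3 and Polr3k (0.97 each). Among the hosts, Gas5 was closest to Fbxo22 and Chchd3 (0.99 each), Snhg1 to Rabgef1 and Plk3 (0.97 each), Snhg5 to H4c8 (0.98) and Slc25a51 (0.97), Snhg12 to Bcl2a1b (0.96) and Tomm22 (0.94), and Epb41l4aos to Ypel3 and Sumo3 (0.93 each). Mir17hg was closest to Iah1 (0.97) and Etfdh (0.96). These are the highest of many values over libraries that share group differences and the length pattern.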

How the data were processed

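RNA-seq of 12 libraries from WT and miR-210 KO macrophages, M0 or M2, was used. The authors depleted ribosomal RNA, trimmed reads (Trimmomatic), removed duplicates (Picard), aligned to GRCm39 (STAR) and counted reads by gene and strand (featureCounts), and they deposited these counts without normalization. The second kind of table deposited by the authors holds a signal, scaled counts from DESeq2 size factors, and was used for levels as an alternative only. Duplicate removal can lower counts of abundant transcripts such as Malat1. Columns name the group but not the sample, so library numbers 1 to 3 are not tied to samples; 0 columns were left out. The labels do not say whether libraries of a group came from separate animals, so p-values measure the spread between these libraries, which may be technical.

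Gene names came from GENCODE annotation of GRCm39 (56323 of 56941 identifiers matched), and miRNA and promoter sequences from RefSeq tables of GRCm38.p6, in which 7 of 10 members have a promoter window. Groups were compared with edgeR 4.0.16 in R 4.3.3 by its quasi-likelihood test (TMM, filterByExpr) on the 6 libraries of a pair, or all 12 for the interaction, with Benjamini-Hochberg adjustment over all genes tested. CPM were TMM-scaled over 12 libraries. Deviations were taken on log2(CPM + 0.5). Alternatives were DESeq2 1.42.0, other scalings and filters, other limits, all 12 libraries, a block by library number, and each library left out. Simulated counts with known changes were used to check edgeR for KO against WT in M0 and for the interaction, and DESeq2 for KO against WT in M0. The simulated spread was the same for all genes, and the other fits were not checked in this way. Pairs of libraries in a group differed by 1.8 to 8.96 times counting noise (chi-square per degree of freedom), so none was counted as a repeat.

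The members, lists and tests were chosen with earlier results of these data known. Named genes were all members, up to 2 called genes per direction and list with the largest difference in a comparison, and for each member the 2 genes of highest r. Snhg17, Tspan32, Cd81, Fkbp5, Mir181a-1hg in WT, Epb41l1, Ltbp3, the antisense genes and genes given as not called were named after their values were seen. Some list members are not reported here.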

Additional observations from a re-analysis of the deposited data

How the results depend on the processing

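Against the alternatives, the counts of members called kept within 1.5 times the reported count in 90 of 93 cases. For both genotype comparisons and the interaction the reported count was 0, so these cases show only that 0 was found again. A fall from 3 to 2 in KO was also within 1.5 times. With a limit of 1 on the log2 difference, 1 member was called with IL-4 in WT and 0 in KO, and with no filter on low counts 1 was called in the interaction (Snhg1). With 1 library left out, 5 to 6 members were called with IL-4 in WT, 2 to 3 in KO and 0 elsewhere. The block by library number left the counts of members at 0 for both genotype comparisons, 5 and 3 with IL-4 and 0 for the interaction. The numbers are not known to pair samples: same-numbered libraries correlated at 0.169, 0.521 and 0.0454 in M0 and at -0.231, 0.261 and 0.181 in M2. Levels from the deposited scaled counts, as a percent of Norad, stayed within the spread of libraries for all 40 member and group values.

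Directions turned only for differences near 0 that were not called, and the cause was not tested beyond the samples or the term removed. For KO against WT in M0 with 1 library left out, Neat1 ran from -0.21 to 0.041, Kcnq1ot1 from -0.13 to 0.14, Epb41l4aos from -0.11 to 0.44 and Mir17hg from -0.056 to 0.18. In M2, Kcnq1ot1 ran from -0.13 to 0.076 and Epb41l4aos from -0.099 to 0.25. With IL-4, Snhg12 ran from -0.068 to 0.19 in WT, and in KO Malat1 from -0.095 to 0.082, Neat1 from -0.21 to 0.042 and Snhg12 from -0.13 to 0.11. In the interaction, Kcnq1ot1 ran from -0.17 to 0.099, Norad from -0.034 to 0.0060, Snhg12 from -0.18 to 0.074 and Epb41l4aos from -0.40 to 0.16. Norad there was 0.0074 with upper-quartile scaling and 0.0015 with protein-coding library sizes.

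With the length covariate, KO minus WT was -0.0046 for Mir17hg and -0.027 for Epb41l4aos in M0 and -0.023 for Epb41l4aos in M2, Snhg12 with IL-4 in WT was -0.065, and the interaction was 0.068 for Epb41l4aos and 0.085 for Snhg12. Without the M0 libraries numbered 2, also chosen after seeing the data, KO minus WT in M0 was -0.033 for Kcnq1ot1 and -0.098 for Mir17hg. With IL-4, Snhg12 was then -0.068 in WT and -0.13 in KO, Neat1 0.042 and Malat1 0.082 in KO, and the interaction of Epb41l4aos was 0.041.

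Counts over all genes moved more. In M0, 65 genes were called between genotypes, against 210 with DESeq2, 532 with no filter, 248 with all 12 libraries, 284 with the block, 182 with the length covariate, 410 without the M0 libraries numbered 2 and 27 with a limit of 1. With 1 library left out the count ran from 20 (without the WT library numbered 3) to 302 (without the WT library numbered 2). In M2, 137 were called, against 360 with no filter, 91 with a stricter filter, 60 with all 12 libraries, 289 with the block, 311 with the length covariate, 40 with a limit of 1, and from 53 (without the KO library numbered 2) to 215 (without the KO library numbered 3) with 1 library left out. A limit of 1 left 2042 of 6137 calls with IL-4 in WT and 1800 of 4842 in KO. The interaction had 0 calls, against 85 with DESeq2, 341 with no filter, 63 with the length covariate 171 without the M0 libraries numbered 2, and from 0 to 77 (without the KO M0 library numbered 2) with 1 library left out. With 3 libraries a group, members of low level rest on few counts, 39 to 106 a library for Epb41l4aos, and differences below the limit could not be resolved there.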
